A study of Mus musculus with 6 samples.

Results

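The regions described are the target clusters of the miR-26 and miR-30 families in AGO2 chimeric eCLIP of newborn mouse brain. In this assay RNA bound by AGO2 is crosslinked and immunoprecipitated (IP), and the guide miRNA is ligated to the RNA it is paired with, so that a chimeric read names a miRNA and its target together. A target cluster is a stretch of mm10 where such targets pile up, deposited with the miRNA and a score. Clusters were chosen by the miRNA named with them, miR-26a-5p or miR-26b-5p for the miR-26 family and miR-30a-5p, miR-30b-5p, miR-30c-5p, miR-30d-5p or miR-30e-5p for the miR-30 family, and each set of coordinates was counted once per family. The WT library had 18029 target clusters, of which 636 belonged to either family. *Mov10* Deletion replicate 1 had 1016 of 27152, and its replicate 2 had 425 of 12379. In the same order the miR-26 family had 321, 426 and 190 of them and the miR-30 family 330, 601 and 239. Both families were named on 15, 11 and 4 sets of coordinates, which count in each family.

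All libraries came from whole brain of C57Bl/6J mice at postnatal day 0 (P0), 1 IP from WT and 2 from *Mov10* Deletion, and the 3 size-matched inputs have no clusters of their own and serve only as the denominator of the authors' enrichment values. MOV10 is an RNA helicase that works with AGO2 at sites of miRNA regulation, and the comparison asks how AGO2 binding differs when it is depleted. The *Mov10* Deletion mouse carries a floxed *Mov10* allele removed by *Emx1*-Cre, which acts in excitatory neurons of neocortex and hippocampus, combined with a *Mov10* heterozygous mutant background, and per the study it retains a small amount of MOV10. Whole brain also holds the many cells in which this Cre does not act. Because WT has 1 library, no test compares the genotypes and no p-value is given. A difference between genotypes was set against the difference between the *Mov10* Deletion libraries.

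miR-26 and miR-30 are conserved families of vertebrates and both are abundant in brain. As other miRNAs do, they pair with messenger RNA chiefly through the seed, nucleotides 2 to 8 from their 5′ end, mostly in 3′ untranslated regions (3′UTRs), and AGO2 with its TNRC6 partners then lowers translation and stability of the bound message. miR-26 precursors lie in introns of the *Ctdsp* phosphatase genes, and miR-26 is known for acting with its host genes during neurogenesis and for targeting *Ezh2*. miR-30 is known for targeting *Lin28a*, *Nedd4* and genes of differentiation, and *Tnrc6a*, itself part of the silencing complex.

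The mature sequences from RefSeq (GRCm38.p6) are shown because the seed, in capitals, is what members of a family share and what their targets were searched for. Sequences of miR-30b-5p and miR-30d-5p were absent from the reference used, so their seed was not read. Their clusters were searched for the match of the miR-30 members shown.
miR-26a-5p: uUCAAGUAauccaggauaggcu
miR-26b-5p: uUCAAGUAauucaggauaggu
miR-30a-5p: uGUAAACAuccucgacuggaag
miR-30c-5p: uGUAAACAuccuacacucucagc
miR-30e-5p: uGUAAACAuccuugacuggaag
Read from the 5′ end, miR-26a-5p and miR-26b-5p were identical at 19 of 21 positions. miR-30a-5p and miR-30e-5p were identical at 21 of 22 positions, and miR-30c-5p matched either of them at 17 of 22. A full match to the seed in a target reads TACTTGA for miR-26 and TGTTTAC for miR-30.

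AGO2 clusters of any value numbered 359172 for WT, 616014 for *Mov10* Deletion replicate 1 and 616005 for replicate 2, and the reads behind them are not given, so depth is unknown. Clusters of the *Mov10* Deletion libraries shared their boundaries, with 614927 AGO2 clusters of identical coordinates in both, against 89 shared by WT and replicate 1. Whether clusters were called on both *Mov10* Deletion libraries together is not given in the sources used here. Where family target clusters of these libraries overlapped, the coordinates were identical in 52 of 52 cases for miR-26 and 59 of 59 for miR-30, against 0 of either family between WT and replicate 1, so cluster boundaries and AGO2 cluster numbers of the replicates are not independent. *Mov10* had 11 AGO2 clusters in WT and 9 in each *Mov10* Deletion library, with 1, 0 and 0 of them enriched in IP over input. The neuronal genes *Map2*, *Tubb3* and *Dcx* and the glial gene *Slc1a3* held 19 to 241 AGO2 clusters in every library, while the liver gene *Alb* held 1 to 3 and the heart gene *Myh6* none.

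The miR-26 family took a share of 1.78% of the WT target clusters (95% interval 1.59 to 1.98). Its share of *Mov10* Deletion target clusters was 1.57% for replicate 1 (1.42 to 1.72) and 1.53% for replicate 2 (1.33 to 1.77). WT was the highest, by 0.229 percentage points over the *Mov10* Deletion mean, which is more than the gap between the *Mov10* Deletion libraries, but its interval overlapped both others. The miR-30 family took 1.83% in WT (1.64 to 2.04), 2.21% in replicate 1 (2.04 to 2.40) and 1.93% in replicate 2 (1.70 to 2.19). For miR-30 the difference of WT minus the *Mov10* Deletion mean was -0.242 points, no larger than the gap between the *Mov10* Deletion libraries, and WT and replicate 2 overlapped in their intervals. Intervals are exact Clopper-Pearson and cover counting error only. The direction of either difference turned with the way clusters were counted. Among clusters listed under no other family the miR-26 difference was -0.131 points, and by lines of the files, 1 per cluster and miRNA, the miR-30 share was 0.100 points higher in WT. Other ways of counting kept the direction. Among clusters listed under no other family the miR-30 share was 1.46% in WT against 2.01% and 1.83%, and at a score of at least 5 it was 1.43% against 1.99% and 1.74%.

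Within the families 1 member led in each. miR-26a-5p was named in 310, 398 and 174 lines (WT, then *Mov10* Deletion replicates 1 and 2), which is 96.6%, 93.4% and 91.6% of the miR-26 clusters, and miR-26b-5p in 31, 40 and 22. miR-30c-5p was named in 205, 265 and 100 lines and so on 62.1%, 44.1% and 41.8% of the miR-30 clusters. The other 4 members had 53 to 92 lines in WT, 76 to 135 in replicate 1 and 25 to 49 in replicate 2, with miR-30a-5p the lowest of them in every library. As a share of all lines, miR-26a-5p held 1.40%, 1.30% and 1.29%, and miR-30c-5p 0.929%, 0.868% and 0.743%. Both were highest in WT, whereas miR-30b-5p held 0.308%, 0.367% and 0.364% and was lowest there.

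**Figure D1:**
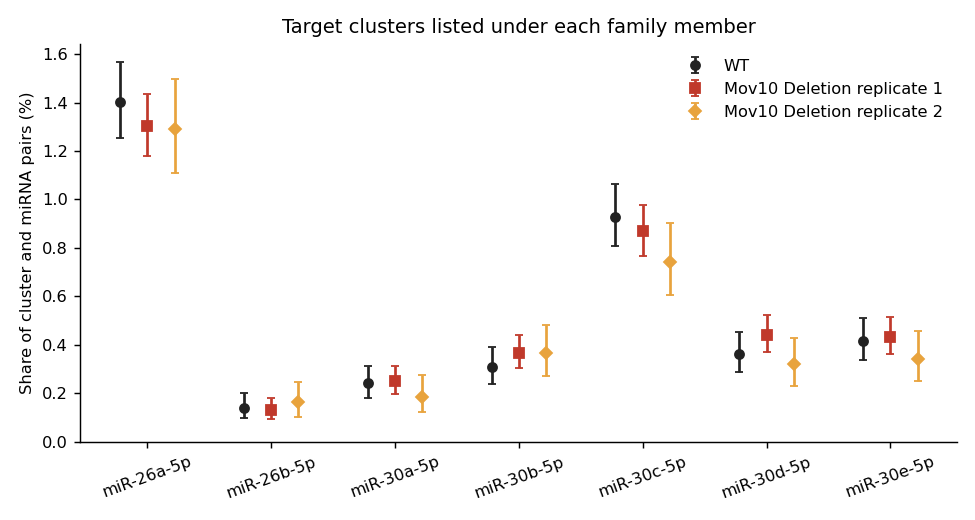
Share of all target cluster lines held by each of the 7 family members, in percent, with exact 95% intervals for WT and both *Mov10* Deletion libraries. miR-26a-5p (1.29% to 1.40%) and miR-30c-5p (0.743% to 0.929%) lie above the other members, and the intervals of the 3 libraries overlap for every member.

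Most clusters were named with a single member of the family, and clusters with several members were commonest in WT. A single miR-30 member was named on 223 of the miR-30 clusters in WT (67.6%), on 525 in replicate 1 (87.4%) and on 224 in replicate 2 (93.7%), and all 5 members on 5, 3 and 1 clusters. For miR-26 both members were named on 20 clusters in WT (6.23%), 12 in replicate 1 (2.82%) and 6 in replicate 2 (3.16%). Outside the families, miR-124-3p, an abundant miRNA of neurons, was named most often beside them, on 24.3%, 11.5% and 8.42% of miR-26 clusters and on 16.1%, 7.65% and 6.69% of miR-30 clusters. Clusters named with several miRNAs were commoner in WT in the files as a whole, where 87.8% of all WT target clusters named a single miRNA against 92.7% and 94.9%. Members with nearly the same sequence cannot always be told apart by a short chimeric read, and the part of this in the listings was not tested.

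Target clusters of a family held the match to their own seed far more often than clusters of other miRNAs. The search covered clusters that lie within the last 5000 nt of a gene paired by name between RefSeq (mm10) and GENCODE vM39 (GRCm39). It read GRCm39 sequence on the sense strand and placed it by the distance from the end of the gene, so a match is missed or misplaced where the annotated ends differ. Of clusters listed under miR-26 and not miR-30, 56 of 193 in WT (29.0%, 22.7 to 36.0), 45 of 204 in replicate 1 (22.1%, 16.6 to 28.4) and 22 of 88 in replicate 2 (25.0%, 16.4 to 35.4) held TACTTGA. Background shares of the same 7 bases in clusters of other miRNAs were 0.609%, 0.619% and 0.785%. For miR-30, 111 of 200 in WT (55.5%, 48.3 to 62.5), 114 of 272 in replicate 1 (41.9%, 36.0 to 48.0) and 42 of 106 in replicate 2 (39.6%, 30.3 to 49.6) held TGTTTAC, against background shares of 0.864%, 1.06% and 1.31%. The other miRNAs include miR-384-5p, which has the miR-30 seed and was named on 5, 8 and 1 clusters of the libraries, searched or not. Each family therefore held its own match in every library at many times the level elsewhere, and miR-30 did so more often than miR-26. The miR-30 share of WT was the highest, with an interval that lay just above that of replicate 1 and overlapped that of replicate 2.

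The match of the other family was rare. miR-26 clusters held the miR-30 match in 2.59%, 0.490% and 3.41% of cases, and miR-30 clusters the miR-26 match in 1.50%, 1.84% and 2.83%. A shorter match of 6 bases (ACTTGA or GTTTAC, contained in the longer ones) was found in 44.6%, 36.3% and 42.0% of miR-26 clusters and in 62.0%, 50% and 47.2% of miR-30 clusters. Clusters of other miRNAs held those 6 bases in 2.07% to 2.43% for miR-26 and 1.87% to 2.31% for miR-30. The base after the 7-base match, opposite nucleotide 1 of the miRNA, was A in 82.1%, 77.8% and 63.6% of the miR-26 clusters with a match and in 76.6%, 72.8% and 78.6% of the miR-30 clusters. Where the same 7 bases stood in clusters of other miRNAs, A followed in 34.9% to 52.8% for miR-26 and 47.3% to 50.8% for miR-30.

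**Figure D2:**
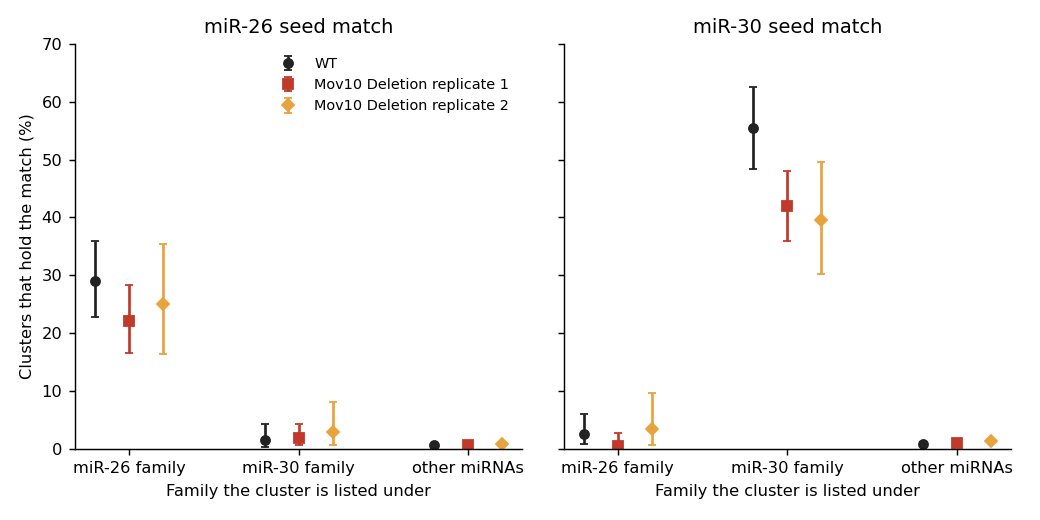
Share of searched target clusters, in percent, that hold the 7-base seed match of miR-26 or of miR-30, for clusters of that family, of the other family and of other miRNAs, with exact 95% intervals in each library. The family's own match stands at 22.1% to 29.0% for miR-26 and 39.6% to 55.5% for miR-30, and the remaining shares stay under 4%.

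The median match began at base 29.5, 28 and 26 of miR-26 clusters with a median width of 86, 69 and 91 nt, and at base 30, 25.5 and 26.5 of miR-30 clusters with 79, 69 and 72.5 nt, which is before the middle of the cluster. miR-30 clusters named with 2 or more members held the match in 58 of 83 cases in WT (69.9%), 41 of 58 in replicate 1 (70.7%) and 12 of 12 in replicate 2, above the family's share in each. For miR-26 the same counts were 5 of 13, 2 of 6 and 1 of 6, too few to place against the family's share. With 1 member named, over all libraries, the shares were 35.5% for miR-30a-5p, 39.6% for miR-30b-5p, 38.5% for miR-30c-5p, 35.8% for miR-30d-5p and 31.1% for miR-30e-5p. A site found in several libraries counts in each. Within a library, from as few as 4 clusters, they ranged from 36.8% to 55.6% in WT, 28.9% to 40.6% in replicate 1 and 19.0% to 39.5% in replicate 2. Whether single members differ was not tested. miR-30 clusters that overlapped family clusters in both other libraries held the match in 71.1%, 65.8% and 66.7% of cases, against 45.5%, 28.7% and 20.4% of those found in 1 library. For miR-26 the same shares were 31.0%, 29.6% and 33.3% against 24.5%, 15.7% and 15.9%, with overlapping intervals. miR-26 clusters found in 1 other library held the match in 35.5%, 30.6% and 35.7%. Searched clusters that overlapped in both other libraries numbered 38, 38 and 39 for miR-30 and 29, 27 and 30 for miR-26. By this choice they are largely the same sites in each library, so their shares are not independent across libraries.

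Nearly all family clusters lay in a gene on the sense strand, 97.3% to 98.1% of either family in each library against 97.4% to 97.7% of all target clusters, and 91.2% to 95% lay in a protein-coding gene. They were concentrated toward gene ends, where 3′UTRs are. Of miR-26 clusters in a gene, 101 of 315 in WT (32.1%, 26.9 to 37.5), 97 of 416 in replicate 1 (23.3%, 19.3 to 27.7) and 47 of 186 in replicate 2 (25.3%, 19.2 to 32.1) had their midpoint within the last 1000 nt. The background over all target clusters in a gene was 17.8%, 13.3% and 14.5%. For miR-30 the counts were 89 of 321 in WT (27.7%, 22.9 to 33), 116 of 587 in replicate 1 (19.8%, 16.6 to 23.2) and 41 of 234 in replicate 2 (17.5%, 12.9 to 23.0). Both families were above the background in WT and replicate 1, while the miR-30 interval of replicate 2 took in the background.

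The median distance from the end was shorter in both families than over all target clusters in every library. It was 2207 nt in WT, 3732.5 nt in replicate 1 and 4790 nt in replicate 2 for miR-26, and 2216, 5110 and 7225 nt for miR-30, against 8678.5, 18719 and 14713 nt for all target clusters. WT clusters lay nearest to gene ends in both families and in the background. Gene bodies were used and introns were not set apart from exons in mm10, so a long distance can be an intron, an upstream exon or a shorter transcript.

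**Figure D3:**
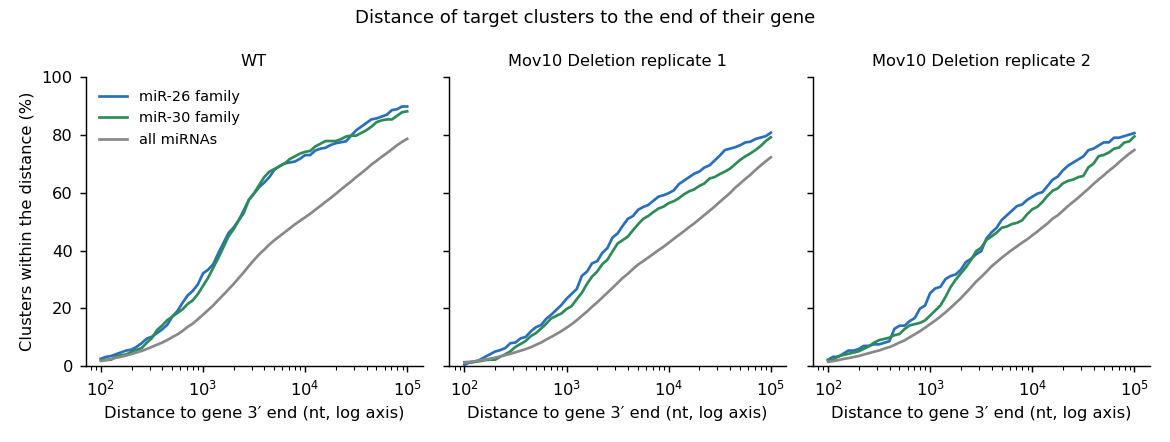
Cumulative share of target clusters in a gene, in percent, against the distance of the cluster's midpoint from the gene's annotated 3′ end in nt on a log axis, 1 line per family and 1 for all target clusters in each library. The family lines run above the line of all clusters over most of the range, and at 1000 nt they stand at 32.1%, 23.3% and 25.3% for miR-26 and 27.7%, 19.8% and 17.5% for miR-30.

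AGO2 enrichment is deposited for the AGO2 clusters, as the log2 of IP over input with a −log10 p. A target cluster was counted as enriched where it overlapped by 1 nt an AGO2 cluster of the same strand and library with both values at least 3. For miR-26 this held for 72 clusters in WT (22.4%, 18.0 to 27.4), 91 in replicate 1 (21.4%, 17.6 to 25.6) and 26 in replicate 2 (13.7%, 9.14 to 19.4), against a background over all target clusters of 15.0%, 11.7% and 12.0%. For miR-30 it held for 69 in WT (20.9%, 16.6 to 25.7), 106 in replicate 1 (17.6%, 14.7 to 20.9) and 40 in replicate 2 (16.7%, 12.2 to 22.1). The miR-26 interval of replicate 2 took in its background, and the other 5 intervals lay above theirs. An AGO2 cluster of any value lay under 72.0%, 58.7% and 51.1% of miR-26 clusters and 79.1%, 54.4% and 53.1% of miR-30 clusters. Over all target clusters these shares were 68.8%, 50.2% and 53.6%. In replicate 2 the intervals of miR-26 (43.7 to 58.4) and miR-30 (46.6 to 59.6) took in the share of all target clusters. Enriched miR-30 clusters held the seed match in 65.4%, 51.4% and 50% of cases and the others in 52.0%, 38.4% and 35.1%. For miR-26 these shares were 33.3%, 26.9% and 35% against 27.2%, 19.7% and 22.1%. The intervals of enriched and other clusters overlapped in every library for both families.

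Few clusters were found again in another library, and the families did not stand out in this. Of WT clusters, 38.9% of miR-26 and 45.5% of miR-30 overlapped a cluster of the same family in replicate 1, and 18.4% and 18.5% did so in replicate 2. When the same miRNA was asked for, the shares were 38.0% and 37.9% in replicate 1 and 17.4% and 15.5% in replicate 2, where the background over all miRNAs was 35.1% and 20.5%. The replicates of *Mov10* Deletion shared no more with each other than with WT. Of replicate 2 clusters, 27.4% of miR-26 and 24.7% of miR-30 overlapped their family in replicate 1 (27.4% and 18.0% under the same miRNA, background 26.7%), and 30.5% and 25.5% did so in WT (28.9% and 21.3% under the same miRNA, background 30.1%). An absence from 1 library is thus common in both families whatever the genotype.

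Few genes, too, were found in every library. A miR-26 cluster was found in 298, 383 and 178 genes, 653 in all, or 6.90% of the 9465 genes with any target cluster. A miR-30 cluster was found in 326, 541 and 222 genes, 814 in all, or 8.60%. The genes found in every library numbered 45 for miR-26, which is 15.1%, 11.7% and 25.3% of each library's genes, and 51 for miR-30, which is 15.6%, 9.43% and 23.0%. Both families had a cluster in 33, 63 and 12 genes. Neither the genes in every library nor those with both families were counted over all miRNAs, so these numbers have no background beside them.

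Among the 10 miR-26 genes with the highest scores in all libraries, 4 held a full seed match in the cluster of every library, and those sites are shown with 11 bases on each side, the match in capitals. Positions are those of the match in GRCm39 on the gene's strand.
Fbxl19 first match, chr7:127367882-127367888, plus strand: tctctacacaaTACTTGAacattcatctg
Fbxl19 second match, chr7:127367911-127367917, plus strand: tactgaagtgtTACTTGAaccgggggaat
Map2, chr1:66478984-66478990, plus strand: acttcctcataTACTTGAatatgatactt
Cd200, chr16:45203769-45203775, minus strand: tttccctggtcTACTTGAatctgatgtga
Malat1, chr19:5850381-5850387, minus strand: ctaaacactttTACTTGAaatatttggga
The matches in *Fbxl19*, *Map2* and *Cd200* lie in the 3′UTR of 15 of 17, 20 of 43 and 15 of 26 annotated transcripts, and that in *Malat1* in an exon of 1 of 23 non-coding transcripts. In each of them the match is followed by A.

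*Fbxl19*, an F-box protein with a domain that binds CpG islands, ranked first by the lowest of its 3 scores. Its miR-26 cluster lay at chr7:127768696-127768793 of mm10 in WT and at chr7:127768671-127768777 in *Mov10* Deletion, with scores of 25.4, 18.0 and 15.4. The log2 IP over input beneath it was 5, 5.29 and 3.16 with −log10 p of 8.62, 17.0 and 4.92, enriched in all 3 libraries. *Map2*, the microtubule-associated protein of dendrites, had the highest miR-26 score of WT. Its cluster at chr1:66439787-66439890 (66439789-66439899 in *Mov10* Deletion) scored 45.9, 24.0 and 10.9, with log2 values of 1.25, 1.71 and 1.62 that are under the enrichment threshold. In both genes the score was highest in WT and lowest in replicate 2, while the log2 was highest in replicate 1. The highest score over all miRNAs fell in the same order, at 3153.1, 1498.1 and 711.1, so the order of scores is not particular to these genes.

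*Malat1*, an abundant nuclear long non-coding RNA, scored 25.8, 27.7 and 13.3 at chr19:5800339-5800374 (5800292-5800372 in *Mov10* Deletion). Its log2 values were -0.17, 0.27 and -0.20, with a −log10 p of 5.85 in replicate 1 and 0 in the others, all far under the enrichment threshold of log2. *Cd200*, a surface glycoprotein through which neurons restrain microglia, scored 15.0, 8.91 and 12.8, with log2 values of 2.38 and 2.16 in *Mov10* Deletion and no AGO2 cluster beneath it in WT. High target scores thus came with strong, weak or no AGO2 enrichment.

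No full match was found in the window of the other 6 genes, which says only that these letters are not at that distance from the annotated end. *Txnl1*, a thioredoxin-like protein, scored 30.9, 14.3 and 16.4 with log2 values of 2.56, 1.42 and 1.42. *Prkar1a*, a regulatory subunit of protein kinase A, scored 26.0, 18.0 and 8.96 at chr11:109668612-109668715, with log2 values of 2.53, 3.63 and 3.75, enriched in *Mov10* Deletion only. *Ifngr2*, a chain of the interferon-gamma receptor, scored 18.4, 26.7 and 8.87 with log2 values of 3.04, 3.80 and 1.45, enriched in WT and replicate 1. These AGO2 differences follow no common order of genotype. *Armcx2* at chrX:134804164-134804262 scored 22.6, 16.5 and 7.96 and was enriched in every library, with log2 values of 5.78, 4.19 and 4.42. *Itfg1* scored 12.5, 9.44 and 9.46 with log2 values of 0.67, 1.59 and 0.14.

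The remaining gene, *Rn18s-rs5*, is a copy of 18S ribosomal RNA and is reported as uncertain, since reads on near-identical rRNA copies cannot be placed and the authors filtered reads on rRNA before mapping. It held 11, 4 and 3 miR-26 clusters with a best score of 18.7, 13.1 and 10, and 8, 8 and 3 miR-30 clusters with 21.4, 9.17 and 15.5. At the best miR-26 cluster 46, 39 and 43 other miRNAs were listed, and no AGO2 cluster lay beneath it, so the gene is not particular to either family.

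**Figure D4:**
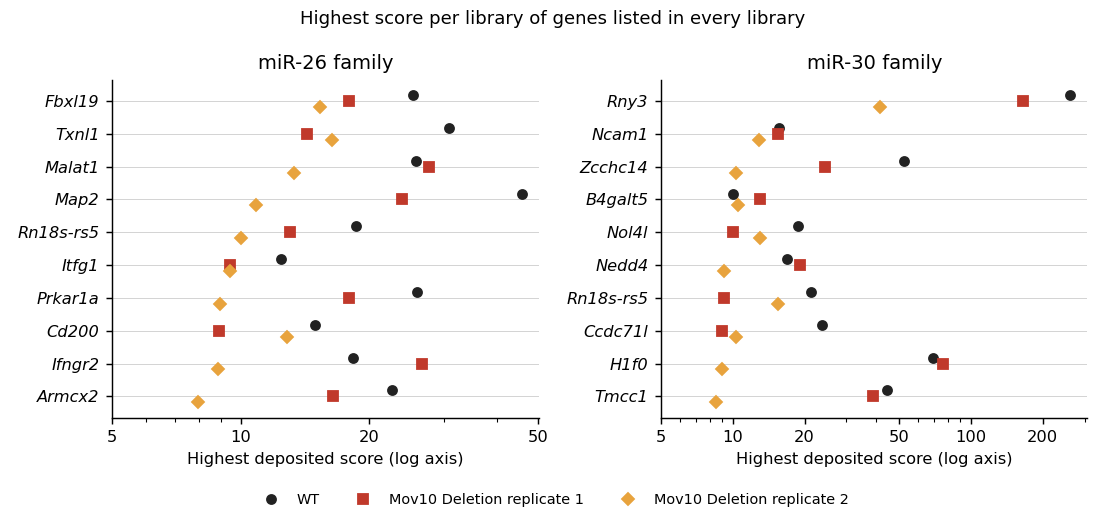
Best target cluster score, on a log axis, of the 10 genes per family with the highest scores in all libraries, 1 point for each of WT and both *Mov10* Deletion libraries. *Rny3* reaches 259.6 for miR-30 and *Map2* 45.9 for miR-26, both in WT, and *Mov10* Deletion replicate 2 is the lowest library for most genes. Over all miRNAs the highest score was 3153.1 in WT, 1498.1 in replicate 1 and 711.1 in replicate 2.

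For miR-30, 8 of the 10 genes chosen in the same way held a full match in the cluster of every library, and 7 of the sites are shown with the match in capitals.
Rny3, chr6:47758578-47758584, plus strand: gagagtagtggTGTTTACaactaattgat
H1f0, chr15:78913803-78913809, plus strand: agtcggtggttTGTTTACtatgaaggaac
Zcchc14, chr8:122327246-122327252, minus strand: gtgttcactgaTGTTTACgattttaatat
Tmcc1, chr6:115998933-115998939, minus strand: ttgagtgaatcTGTTTACatttaggataa
Ncam1, chr9:49415749-49415755, minus strand: caaaagatgatTGTTTACagtggctctat
Nol4l, chr2:153250368-153250374, minus strand: tggaagtgtacTGTTTACatgtacagatg
Ccdc71l, chr12:32429722-32429728, plus strand: tgtcagtcgaaTGTTTACagaaccggccc
All but that of *Rny3*, which is an exon of a non-coding transcript, lie in annotated 3′UTRs. The eighth gene, *Nedd4*, held a pair of matches 11 bases apart, shown as 1 stretch because both fell within a single cluster in every library.
Nedd4, chr9:72655343-72655372, plus strand: cgTGTTTACggagttcattaTGTTTACaga
It lies in the 3′UTR of 31 of 43 annotated transcripts.

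*Rny3* encodes a Y RNA, a small non-coding RNA bound by the Ro60 protein, and had the highest miR-30 score in each library. Its cluster at chr6:47781633-47781694 (47781635-47781697 in *Mov10* Deletion) scored 259.6, 165.7 and 41.6, was named with all 5 members in every library, and also with 8, 7 and 2 other miRNAs. The log2 values were 3.14, 3.27 and 2.75 with the −log10 p at its limit of 400. Y RNAs have many near-identical copies in the genome, so the placement of these reads is uncertain. *H1f0*, the linker histone of differentiated cells, scored 69.5, 76.0 and 8.98 at chr15:79029511-79029639 (79029454-79029637 in *Mov10* Deletion). Its log2 values of 5.41, 6.01 and 5.56 were close in all libraries although the score of replicate 2 was the lowest by far.

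*Zcchc14*, a zinc-finger protein, scored 52.4, 24.5 and 10.3 at chr8:121600449-121600546 with log2 values of 4.72, 4.69 and 5.11. *Tmcc1*, a protein of the endoplasmic reticulum membrane, scored 44.5, 38.7 and 8.51 at chr6:116021911-116022003 (116021916-116022007 in *Mov10* Deletion) with log2 values of 3.56, 3.30 and 3.54. Both were enriched for AGO2 in all libraries at nearly the same level in WT and *Mov10* Deletion. *Ccdc71l* scored 23.7, 9 and 10.3 with log2 values of 4.94, 5.23 and 5.65, and *Nol4l* 18.9, 10 and 13.0 with 6.26, 4.01 and 3.90. For *Nol4l* WT was the highest in score and in AGO2 enrichment.

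*Nedd4*, a ubiquitin ligase that acts in growth of dendrites and a reported target of miR-30, scored 16.9, 19.1 and 9.20 at chr9:72748039-72748184 (72748033-72748114 in *Mov10* Deletion), with log2 values of 1.32, 2.00 and 1.58. *Ncam1*, the neural cell adhesion molecule, scored 15.6, 15.5 and 12.9 with log2 values of 1.96, 1.54 and 1.94. Neither reached the enrichment threshold in any library, and their scores differed little between WT and replicate 1. *B4galt5*, an enzyme that makes lactosylceramide, scored 10, 13.0 and 10.5 at chr2:167299709-167299818 and was enriched in every library with log2 values of 3.66, 5.03 and 3.98, but no full match was found in its window. Thus 6 of the 10 genes, *Zcchc14*, *B4galt5*, *Nol4l*, *Ccdc71l*, *H1f0* and *Tmcc1*, were enriched for AGO2 in all 3 libraries, and for miR-26 *Fbxl19* and *Armcx2* were. Over all target clusters the enriched share was 15.0% in WT, 11.7% in replicate 1 and 12.0% in replicate 2, and none was counted for all 3 libraries together. The genes were picked by score, and at a score of at least 5 the WT share was 37.8% for miR-26 and 31.0% for miR-30. Whether the families differ in this was not tested.

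In *Plxna2*, a semaphorin receptor that guides axons, the clusters of both families lay on the same stretch, which holds a miR-30 match and, 9 bases on, a miR-26 match.
Plxna2, chr1:194495557-194495586, plus strand: cacTGTTTACagtaagcaaTACTTGAagag
The matches lie 3617 and 3601 nt before the end of the gene, in the 3′UTR of 5 of 9 annotated transcripts. The miR-26 scores were 9.39, 6.00 and 4 and the miR-30 scores 4.25, 5 and 3, so both families were found in all libraries, with log2 values of 2.31, 2.44 and 3.19. Besides *Plxna2*, the genes with clusters of both families in every library were *Rn18s-rs5*, *Tnrc6a* and *Pcdh9*. *Pcdh9*, a protocadherin of neuronal contacts, scored 3 to 8 at places 558950 nt or more from its end. The miR-26 cluster was the same in WT and replicate 2, and the miR-30 clusters differed between libraries.

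*Tnrc6a* encodes the scaffold that AGO2 recruits to silence its targets, and its 3′ end held 1 match of miR-26 and 4 of miR-30. They are shown in order because clusters fell on each of them in at least 1 library.
Tnrc6a miR-26, chr7:122792324-122792330, plus strand: atcagtttgaaTACTTGAatcatgcaggc
Tnrc6a miR-30 a, chr7:122792608-122792614, plus strand: tccagtgtagaTGTTTACtcaagggtgtt
Tnrc6a miR-30 b, chr7:122792896-122792902, plus strand: gtgaaccttctTGTTTACagatttttttg
Tnrc6a miR-30 c, chr7:122792935-122792941, plus strand: gagaaaaaaaaTGTTTACtcttccatcat
Tnrc6a miR-30 d, chr7:122793695-122793701, plus strand: tggcttttaacTGTTTACaataggatgtg
The miR-26 match, 2195 nt before the end, lay in a miR-26 cluster in all 3 libraries, and so did miR-30 match d, 824 nt before the end, in miR-30 clusters. Matches a, b and c were covered in 1, 2 and 1 libraries. In WT and replicate 1 the miR-26 place was also listed under miR-30, whose match it does not hold. The best miR-26 score of *Tnrc6a* was 24.2 in WT at chr7:123193063-123193188 of mm10, where AGO2 enrichment had a log2 of 5.08. In replicate 2 it was 5 at chr7:123193051-123193168 with a log2 of 5.46, and the best in replicate 1, 11.8, lay 7891 nt from the end with no AGO2 cluster. For miR-30 the best scores were 9.69, 6.24 and 4.01, with log2 values of 4.71, 4.82 and 5.06, so AGO2 was enriched at the *Tnrc6a* end in all 3 libraries.

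The paralogs *Tnrc6b* and *Tnrc6c* also had miR-26 clusters in every library. *Tnrc6b* scored 15.3, 25.4 and 4.75 at chr15:80929684-80929801 (80929682-80929766 in *Mov10* Deletion), 11344 and 11363 nt from its end, with log2 values of 2.22, 4.12 and 3.65. *Tnrc6c* scored 9.49, 3.89 and 9.64, but the cluster of replicate 2 lay 21654 nt from the end while the others lay at 1987 and 2007 nt. miR-30 clusters were found in WT and replicate 1 only, with scores of 4.40 and 3.56 in *Tnrc6b* and 12.5 and 6.00 in *Tnrc6c*. Replicate 2 was the library with the fewest target clusters, and the part of this in the absence was not tested. In *Tnrc6c*, a miR-26 match lies 2006 nt before the end and miR-30 matches lie 4068, 1552 and 1250 nt before it, with clusters on the match at 2006 in 2 libraries, at 1552 in 2, at 1250 in 1 and at 4068 in none. The sites found in 2 libraries are shown.
Tnrc6c miR-26, chr11:117652259-117652265, plus strand: aaacatgcaaaTACTTGAacccagcaggc
Tnrc6c miR-30, chr11:117652713-117652719, plus strand: tcatgtgtaaaTGTTTACtcaaggactct
Of the 13 genes listed for silencing (Argonautes, TNRC6 proteins, Dicer, Drosha and their partners), 5 had a miR-26 cluster and 5 a miR-30 cluster in some library, and 3 and 1 in every library, beside 653 and 814 of the 9465 genes with any target cluster, of which 45 and 51 in every library. Of these 13 genes, 12 had a target cluster of any miRNA. *Dicer1*, the enzyme that cuts miRNA precursors, had miR-26 clusters with scores of 7 in WT and 3.81 in replicate 1, enriched in both with log2 values of 3.58 and 4.06. *Ago2* had a miR-30 cluster in replicate 1 alone, with the score 4.

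**Figure D5:**
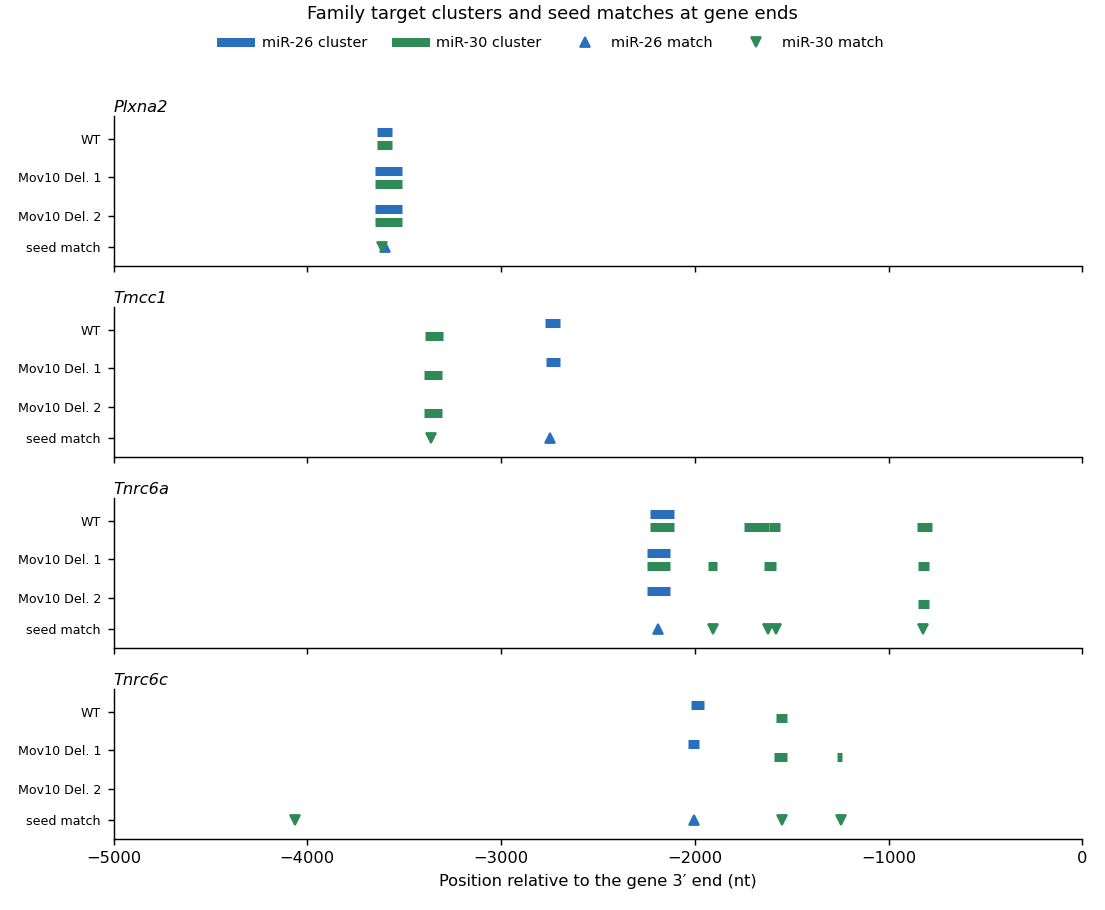
Family target clusters (bars, 1 row per library, miR-26 and miR-30 in different colours) and seed matches (triangles) in the last 5000 nt of *Tnrc6a*, *Tnrc6c*, *Tmcc1* and *Plxna2*, against the distance from the annotated 3′ end in nt. Clusters cover the miR-26 match of *Tnrc6a* at 2195 nt and its miR-30 match at 824 nt in all 3 libraries, and both *Plxna2* matches, at 3601 and 3617 nt, lie under the same clusters.

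In *Tmcc1* the families used separate places, with the miR-30 match 3367 nt before the end covered in all 3 libraries and a miR-26 match at 2748 nt covered in WT and replicate 1. The miR-26 scores of *Tmcc1* were 14.0 in WT and 7.29 in replicate 1. Its miR-26 site is the following.
Tmcc1 miR-26, chr6:115998314-115998320, minus strand: tccgaacaacaTACTTGAagaatgtaata

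Genes known as targets of the families from earlier work were found in part. Of 26 reported miR-26 targets, 9 had a miR-26 cluster in some library (6 in WT, 6 in replicate 1 and 2 in replicate 2) and none in all 3, beside 653 of the 9465 genes with any target cluster, while 3 had a miR-30 cluster. Of these 26 genes, 20 had a target cluster of any miRNA. *Tet3*, an enzyme that oxidises methylated cytosine, scored 7.78 in WT and 5 in replicate 2, with log2 values of 2.40 and 3.84. Its sites lie in the 3′UTR and are shown as an example of a reported target.
Tet3 first match, chr6:83339786-83339792, minus strand: cttaacaaccaTACTTGAatattccgtct
Tet3 second match, chr6:83339749-83339755, minus strand: taaactgtggcTACTTGAaatgaagttta
*Ezh2*, the histone methyltransferase of Polycomb, had 1 cluster, in WT, with the score at its minimum of 3. *Slc38a2*, *Mcl1* and *Ccnd2* had clusters in WT and replicate 1 with scores of 3.06 to 5, and *Gsk3b*, *Ccne2* and *Usp9x* in 1 *Mov10* Deletion library each. Of the *Ctdsp1*, *Ctdsp2*, *Ctdspl* and *Nfyc* genes, which host miR-26 and miR-30 precursors, *Ctdsp2* alone had a cluster, a miR-26 cluster of WT with the score 4.78 and a log2 of 4.56.
Ctdsp2, chr10:126833435-126833441, plus strand: agtgttgctctTACTTGAtttgccaaatg
Each of these named genes was missed by at least 1 library.

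Of 35 reported miR-30 targets, 11 had a miR-30 cluster in some library (7 in WT, 7 in replicate 1 and 3 in replicate 2), and *Tnrc6a*, *Nedd4* and *Neurod1* had one in every library, beside 814 of the 9465 genes, while 3 of the 35 had a miR-26 cluster. Of these 35 genes, 27 had a target cluster of any miRNA. *Neurod1*, a transcription factor of neuronal differentiation, scored 3, 4.74 and 3.72 with log2 values of 2.46, 3.38 and 3.25. *Celsr3*, *Lhx1*, *Socs3* and *Smad1* were found in WT alone with scores of 3.08 to 6.58, and *Ppp3ca*, *Ccn2*, *Twf1* and *Pip4k2a* in replicate 1 alone with scores of 3 to 7. *Lin28b*, on the miR-26 list, had a miR-30 cluster in every library, with scores of 6.00, 3.87 and 3. A full match was found for 7 of the 10 searched miR-30 targets and 6 of the 8 searched miR-26 targets. Here a gene counts if its cluster in any library held the match, so the counts are unlike the shares per cluster given above. No such count was made over all genes of the families, and the lists were chosen with earlier results known.

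Genes listed in 1 genotype are given as a description. For miR-26, the 5 highest genes of both *Mov10* Deletion libraries that were not listed in WT were *Ptprd*, *Tcf7l2*, *Ice1*, *Ncam2* and *B3gnt2*. *Tcf7l2*, a transcription factor of Wnt signalling, scored 4.61 and 5.66 in replicates 1 and 2 on the same cluster, with log2 values of 1.63 and 1.41. *Ncam2*, an adhesion molecule of axons, scored 6.01 and 3.64 with log2 values of 4.12 and 0.84, which lie far apart, 392684 nt from the gene's end. *Ptprd*, a receptor phosphatase of synapses, scored 7 and 5 on clusters that do not overlap. Of the 4 of these 5 genes that were searched, *Ptprd* alone held a full match, in replicate 1 only. The 5 highest genes of WT alone were *Unc119b* (score 11.9), *Mex3b* (11.2), *Gpsm1* (10.8), *Pim1* (10.6) and *Slc25a16* (9.55). *Gpsm1*, a modulator of G protein signalling, *Pim1*, a serine/threonine kinase, and *Slc25a16*, a mitochondrial carrier, were enriched for AGO2 with log2 values of 3.66, 5.25 and 3.08, and each cluster held a full match.

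For miR-30, *Rbfox3*, *Apba1*, *Hcfc2*, *Hipk1* and *Capn5* led the genes of both *Mov10* Deletion libraries. *Hcfc2*, a host cell factor protein, scored 4.93 and 7.73 at chr10:82740761-82740822 with log2 values of 4.97 and 6.58. *Hipk1*, a nuclear kinase, scored 4.61 and 4.32 at chr3:103742358-103742413 with log2 values of 4.46 and 4.70. These were the genes of the 5 with AGO2 enrichment in both *Mov10* Deletion libraries. Of the 3 of the 5 that were searched, *Apba1* held a full match in replicate 1 only and *Capn5* in replicate 2 only. *Rbfox3*, the splicing factor known as NeuN, scored 6.04 and 6.00 on separate clusters, 209019 and 291258 nt from its end, with no AGO2 cluster beneath either. The genes of WT alone were *Zik1* (score 7.29), *Tspyl1* (6.85), *Proser1* (6.75), *Xist* (6.75) and *Rsrp1* (6.60), with log2 values of 5.53, 3.26, 2.40, 0.91 and -0.10, and no full miR-30 match was found for the 4 of them that were searched. Since clusters of the *Mov10* Deletion libraries were missed by the other replicate more often than not, a gene listed in 1 genotype is not shown to differ between them.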

How the data were processed

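The authors' processed clusters of 3 AGO2 IP libraries were used. Per the study's methods the authors pruned molecular identifiers and trimmed adapters. They set aside reads that map to repeats or rRNA, aligned what was left to mm10, collapsed PCR duplicates and used CLIPper to call clusters. Chimeric reads were processed by a service company. The submitters' processing notes name UMI-tools 1.1.1, cutadapt 3.2, STAR 2.7.7a and Bowtie 1.2.3. The deposited AGO2 clusters carry an enrichment in IP against input as log2, with its −log10 p (limit 400). The deposited target clusters carry a score of at least 3.0, which the sources used here do not describe, so it served to order genes and as a filter in 1 alternative, and its levels are printed per library as deposited, with no statement on whether they compare between libraries. Reads per cluster are not given, so depth and its precision are unknown.

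Clusters were counted once per family. Each was assigned to every RefSeq gene body (GRCm38.p6, the assembly of mm10) that held the whole cluster on the same strand. Of the 49997 genes 90.6% had a strand, and 98.0% of coding genes. Strands came from RefSeq tables of that assembly and, where these had none, from GENCODE vM39. Cluster coordinates are mm10 and site coordinates GRCm39, counted from 1, and none were converted. Seed matches were searched in 1093 family clusters and 19834 clusters of other miRNAs in 39928 genes paired between the annotations. Shares carry exact Clopper-Pearson 95% intervals, and counting was tested on simulated data. Python 3.11.15, numpy 2.4.6, pandas 2.3.3, scipy 1.17.1 and matplotlib 3.10.9 were used.

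The members and gene lists were chosen with earlier results of these data known, and the seed search was added after the data were seen. Named genes are, per family, the 10 with the highest lowest score among genes of every library, the 5 highest of WT only and of both *Mov10* Deletion libraries only, the 5 leading genes with both families, and listed genes with a cluster, of which 1 is not reported here. Alternatives were assignments in place of clusters, clusters listed under the family only, a score of at least 5, other gene end lengths, other enrichment thresholds, and libraries left out.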

Additional observations from a re-analysis of the deposited data

How the results depend on the processing

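No paired analysis was possible because the groups share fewer than 2 replicate numbers and no test was made. Of 80 alternative values, 46 kept their direction and moved by less than their interval or by less than 1.5 times for a count, and 2 turned in sign. The cause was not tested. The WT minus *Mov10* Deletion difference of the miR-26 share (0.229 percentage points) was 0.0997 by assignments, -0.131 among clusters listed under the family only and 0.297 at a score of at least 5, and 0.212 to 0.246 with a *Mov10* Deletion library left out. That of miR-30 (-0.242) was 0.100 by assignments, -0.458 among clusters listed under the family only and -0.438 at a score of at least 5. With a *Mov10* Deletion library left out it was -0.383 to -0.100. Genes in every library fell from 45 to 20 for miR-26 and from 51 to 22 for miR-30 at a score of at least 5, and numbered 55 to 134 and 71 to 181 with a library left out. Within the last 500 or 2000 nt of a gene lay 17.1% or 47.9% of miR-26 clusters in WT, 13.7% or 34.8% in *Mov10* Deletion, and 17.1% or 47.4% and 11.3% or 32.4% of miR-30 clusters. At a score of at least 5 the share in the last 1000 nt was 35.6% in WT and 34.1% in *Mov10* Deletion for miR-26, so these lay close together. For miR-30 it was 35.1% in WT and 23.2% in *Mov10* Deletion. Enriched AGO2 clusters lay under 17.8% of WT miR-26 clusters with −log10 p of at least 5, 32.7% with log2 of at least 2 and 37.8% at a score of at least 5. In *Mov10* Deletion the last 2 gave 23.8% and 25.9%. For miR-30 they gave 30.9% and 31.0% in WT and 21.8% and 27.4% in *Mov10* Deletion, where −log10 p of at least 5 gave 14.1% and an AGO2 overlap over 50% of the cluster 14.9%. Seed matches in *Mov10* Deletion came to 27.4% for miR-26 and 52.1% for miR-30 at a score of at least 5, and to 43.5% for miR-30 in a window widened by 20 nt on each side. For miR-26 the score limit moved the replicates apart, to 18.5% in replicate 1 and 36.4% in replicate 2. The *Mov10* Deletion values here are means over both libraries. The unknown depth limits any statement on a missing cluster, and with 1 WT library genotype and library cannot be told apart.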
